A study of Mus with 8 samples.

Results

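Bile acids are made from cholesterol in hepatocytes, and the genes described here encode 8 enzymes of that route and its nuclear receptor pair FXR (Nr1h4) and SHP (Nr0b2). The members are the rows carrying the gene symbols Cyp7a1, Cyp8b1, Cyp27a1, Cyp7b1, Hsd3b7, Akr1d1, Slc27a5, Baat, Nr1h4 and Nr0b2, and all 10 were found, each with 1 row, among 23185 named genes. They were measured on expression arrays of mouse liver collected at 48 h of regeneration after partial hepatectomy, in which a piece of the organ is cut away and the remnant grows back. The groups were 4 arrays from LKB1 KO livers and 4 from Control livers, every liver having undergone the operation. LKB1, encoded by Stk11, is a kinase that activates AMPK and related kinases. The sources used here do not give the method or the cell type of the LKB1 deletion, nor the sex, age and strain of the mice. The labels do not say that the samples of a group came from separate animals, so the p-values reflect only how these samples vary among themselves, which may be technical.

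In the classic route, Cyp7a1 places the first hydroxyl group on cholesterol and sets the pace of synthesis, and Cyp8b1 adds a further hydroxyl group that makes cholic acid rather than chenodeoxycholic acid and its derivatives. In the alternative route, Cyp27a1 hydroxylates the side chain and Cyp7b1 then acts on the resulting oxysterols. Hsd3b7 and Akr1d1 remodel the rings, Slc27a5 activates the side chain with coenzyme A, and Baat joins it to taurine or glycine. FXR is the receptor that senses bile acids. It induces SHP, a receptor without a DNA-binding domain that represses Cyp7a1 and Cyp8b1.

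The values are log2 expression levels as deposited, and each difference is the LKB1 KO mean minus the Control mean in log2 units, with its standard error (SE) from a limma fit over all named genes. A gene passed when its Benjamini-Hochberg adjusted p was under 0.05. Stk11 itself lay between 3.97 and 4.84 in the LKB1 KO arrays and between 6.46 and 6.76 in the Control arrays, so every array went with its label. Array medians ran from 3.78 to 3.96 in LKB1 KO and from 3.75 to 3.86 in Control. LKB1 KO 2 had the highest median and the narrowest spread over genes (SD 1.92), and Control 4 had the lowest mean correlation with its own group among the Control arrays (0.976). The level that 95% of 1333 olfactory and vomeronasal receptor genes did not exceed, 3.73, served as a gauge of background. Every member lay above it on every array, with 4.80 as the lowest value.

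Most of the members were lower in the LKB1 KO livers. Of 13 other enzymes and partners of the route, described below, 1 fell and 12 did not pass, with a median difference of -0.05. A gene that did not pass is not thereby shown to be unchanged. Of the 10 members 7 fell, 0 rose and 3 did not pass, where 1.49% of all genes tested fell, 0.487% rose and 1.98% passed in either direction. The members that fell were Cyp7a1, Cyp27a1, Cyp7b1, Hsd3b7, Slc27a5, Baat and Nr1h4. The median difference of the members was -0.93, against 0.02 over all genes. At an unadjusted p under 0.05, 9 members differed, Nr0b2 being the exception. Over all genes 3114 of 23185 did, the background for every such count given below. For 8 members, 7 lower and 1 higher in LKB1 KO, there was no overlap between the groups of arrays, against 8.84% of all genes. With 4 arrays per group, the calls were sensitive to the loss of an array. With single arrays left out, the number of members past the threshold was 6 or 7 without Control 3 or Control 4, and between 1 and 3 without any of the others.

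**Figure D1:**
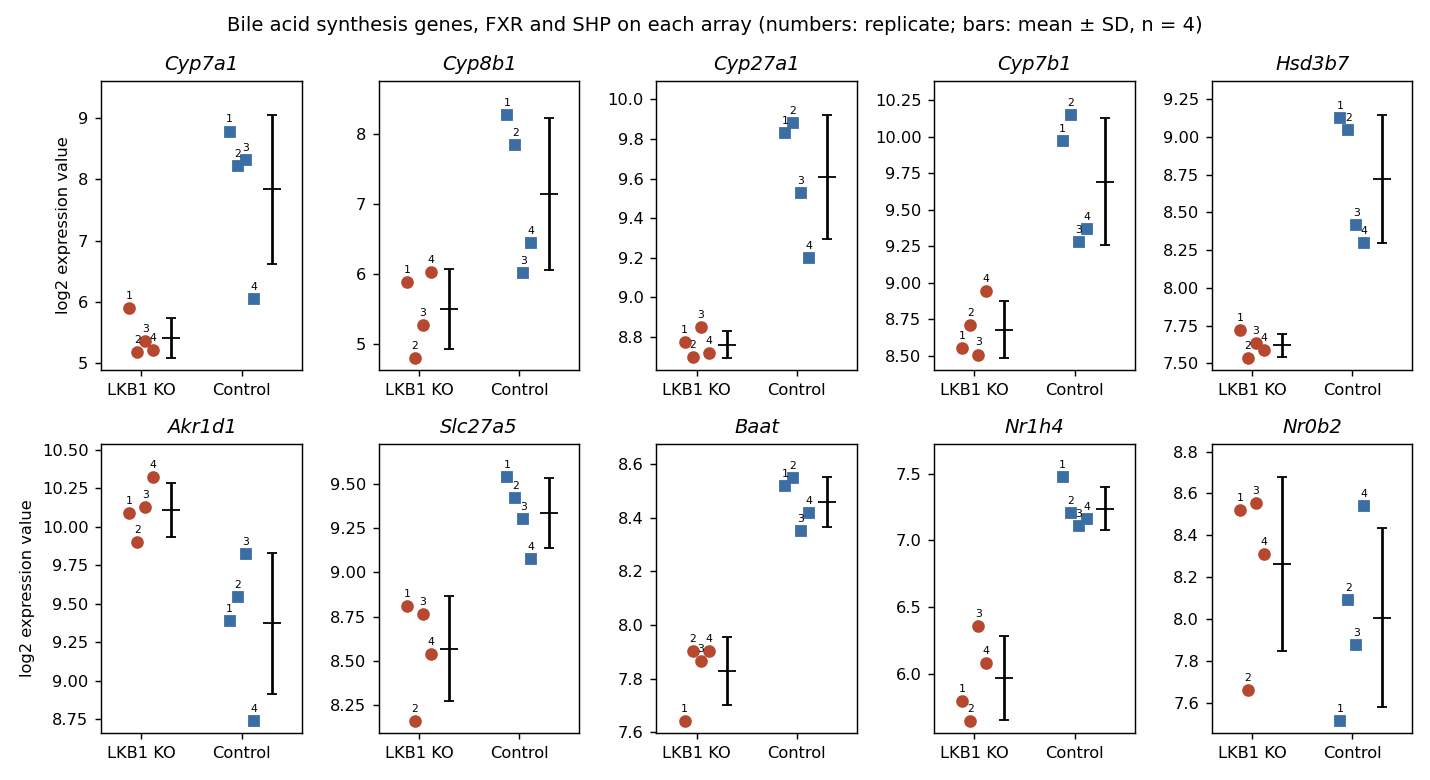
Log2 expression value of each member (vertical axis, own scale per panel) on the 4 LKB1 KO arrays (red circles) and the 4 Control arrays (blue squares), with replicate numbers and the mean ± SD of each group. The groups are apart in every panel except Cyp8b1 and Nr0b2, with Akr1d1 higher in LKB1 KO and Control 4 close to the LKB1 KO arrays for Cyp7a1.

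Cyp7a1 (Entrez Gene 13122), the rate-limiting enzyme gene, had the largest difference of the members. Its values were 5.89, 5.18, 5.36 and 5.21 in LKB1 KO 1 to 4, against 8.78, 8.22, 8.31 and 6.05 in Control 1 to 4. All LKB1 KO arrays lay below all Control arrays, but Control 4 stood more than 2 log2 units below the other Control arrays and only 0.16 above the nearest LKB1 KO array. The means were 5.41 ± 0.33 in LKB1 KO and 7.84 ± 1.22 in Control (SD, n = 4 each). The difference of -2.43 (SE 0.49) is a 5.39-fold lower level, with a 95% confidence interval of 2.56 to 11.3-fold and a limma adjusted p of 0.0312. Without Control 4 the difference was -3.03 (adjusted p = 0.000384). Without any other single array the adjusted p lay between 0.0636 and 0.0998, and the difference stayed at -2.12 or below.

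Cyp8b1 (Entrez Gene 13124), which decides the share of cholic acid, had the widest spread among the LKB1 KO arrays and did not pass. It measured 5.89, 4.80, 5.27 and 6.04 in LKB1 KO 1 to 4, against 8.28, 7.84, 6.02 and 6.45 in Control 1 to 4. Control 1 and Control 2 stood far above every LKB1 KO array, while Control 3 lay just below LKB1 KO 4, so the groups overlapped by 0.02 log2 units. The difference was -1.65 (SE 0.47, 95% confidence interval -2.69 to -0.60, limma adjusted p = 0.125), an interval that runs from 1.52-fold to 6.45-fold lower. Without Control 3 it was -2.02 (adjusted p = 0.0499), and without any other single array the adjusted p lay between 0.105 and 0.298, with a difference as small as -1.27.

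Both enzymes of the alternative route fell, with smaller differences than that of Cyp7a1, although the interval of Cyp7b1 (-1.47 to -0.55) overlapped that of Cyp7a1 (-3.50 to -1.36). Cyp27a1 (Entrez Gene 104086), the mitochondrial side-chain hydroxylase gene, measured 8.78, 8.70, 8.85 and 8.72 in LKB1 KO 1 to 4, against 9.83, 9.88, 9.53 and 9.20 in Control 1 to 4. The LKB1 KO arrays were tightly grouped (SD 0.07, against 0.31 in Control) and all below the lowest Control array. Its difference was -0.85 (SE 0.16, limma adjusted p = 0.0240), or 1.80-fold lower. Cyp7b1 (Entrez Gene 13123), the oxysterol hydroxylase gene, measured 8.56, 8.71, 8.51 and 8.94 in LKB1 KO 1 to 4, against 9.97, 10.15, 9.28 and 9.37 in Control 1 to 4. The groups did not overlap, and the Control arrays fell into a higher pair (1 and 2) and a lower pair (3 and 4). Its difference was -1.01 (SE 0.21, limma adjusted p = 0.0347), or 2.02-fold lower. Either call held without Control 3 or Control 4 and ended without any other single array, with adjusted p from 0.0555 to 0.0800 for Cyp27a1 and from 0.0598 to 0.104 for Cyp7b1.

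Cyp7b1 is known as a gene with higher expression in male than in female mouse liver. In a list of 12 measured male-biased liver genes that includes it, 9 fell, 0 rose and the median difference was -1.59. The largest falls among those that passed were in the fatty acid elongase gene Elovl3 (-3.69, limma adjusted p = 0.0110), the fatty acid hydroxylase gene Cyp4a12a (-3.01, adjusted p = 0.00155), Selenbp2 (-2.71, adjusted p = 0.00287), Keg1 (-2.60, adjusted p = 0.00181) and the complement gene C6 (-1.77, adjusted p = 0.000947). Hsd3b5, a steroid dehydrogenase gene named after its value was seen, stood at -2.87 and did not pass (adjusted p = 0.0885). It lay under the gauge on all 4 LKB1 KO arrays and 1 Control array, so the size of its difference is uncertain. Elovl3 and Cyp4a12a each lay under the gauge on 1 LKB1 KO array. Of 10 female-biased genes, the steroid hydroxylase gene Cyp17a1 rose (2.83, adjusted p = 0.00542), 0 fell, and the next, Cyp2a4, stood at 1.23 (adjusted p = 0.247) and lay under the gauge on 2 Control arrays. Of the 10 genes, 6 lay under the gauge on all 8 arrays, so the count of this list rests on the remaining 4. The Y-linked gene Eif2s3y lay between 6.93 and 7.35 in LKB1 KO and between 6.80 and 7.48 in Control, and Xist, the female X-inactivation transcript, lay under the gauge on all 8 arrays, so transcripts of the Y chromosome were present on all arrays of both groups. The other Y-linked genes, Uty and Kdm5d, stood at -0.39 (adjusted p = 0.426) and -0.41 (adjusted p = 0.445).

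The 2 ring-modifying enzymes stood on opposite sides. Hsd3b7 (Entrez Gene 101502), the steroid dehydrogenase gene that acts on the intermediates of both routes, measured 7.72, 7.54, 7.63 and 7.59 in LKB1 KO 1 to 4, against 9.13, 9.05, 8.42 and 8.30 in Control 1 to 4. The highest LKB1 KO array was 0.58 log2 units below the lowest Control array. Its difference was -1.10 (SE 0.19, limma adjusted p = 0.0177), or 2.15-fold lower. The call ended without Control 2, LKB1 KO 3 or LKB1 KO 4, with adjusted p between 0.0549 and 0.0592.

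Akr1d1 (Entrez Gene 208665), the reductase gene for the next step, measured 10.09, 9.90, 10.13 and 10.32 in LKB1 KO 1 to 4, against 9.39, 9.55, 9.82 and 8.74 in Control 1 to 4. All LKB1 KO arrays lay above all Control arrays, but the nearest arrays were only 0.08 apart and Control 4 was lower than the rest. The difference of 0.74 (SE 0.21, 95% confidence interval 0.27 to 1.20) did not pass over all genes (limma adjusted p = 0.126), and did not with any single array left out (adjusted p from 0.0707 to 0.284).

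**Figure D2:**
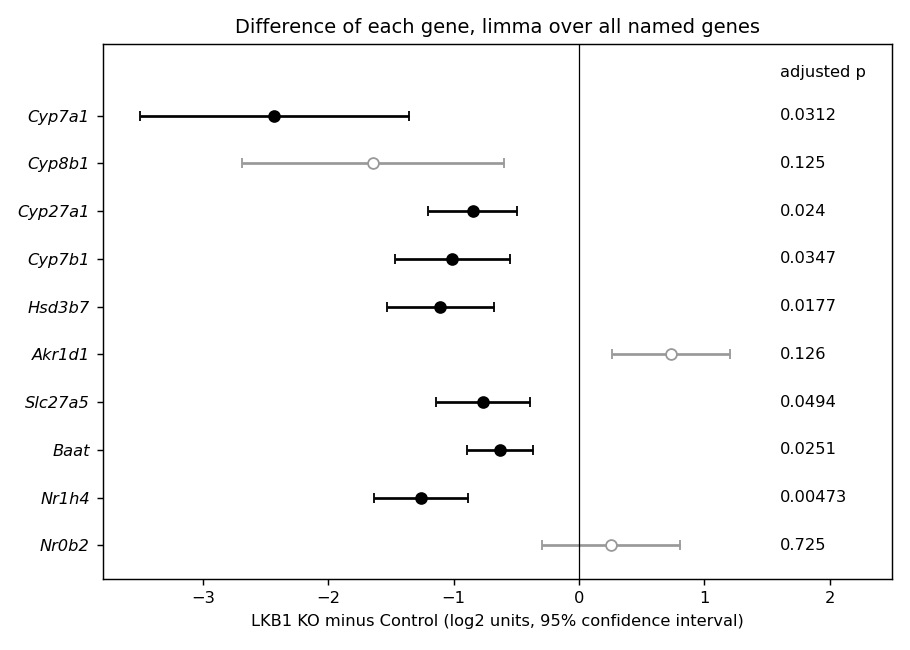
Difference of each member, LKB1 KO minus Control (horizontal axis, log2 units), with its 95% confidence interval and limma adjusted p over all named genes; filled points passed at 0.05 and open points did not. Of the 10 members, 7 lie below 0 with an adjusted p under 0.05, and Akr1d1 and Nr0b2 lie above 0.

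The conjugation genes had the smallest differences among the members that fell, with intervals that overlapped those of Cyp27a1 and Cyp7b1. Slc27a5 (Entrez Gene 26459), which encodes the bile acyl-CoA synthetase, measured 8.81, 8.16, 8.76 and 8.54 in LKB1 KO 1 to 4, against 9.54, 9.42, 9.30 and 9.08 in Control 1 to 4. The groups were 0.27 apart at their nearest arrays, and LKB1 KO 2 was the lowest. Its difference was -0.77 (SE 0.17, limma adjusted p = 0.0494), or 1.70-fold lower, close to the threshold. Without Control 4 the adjusted p was 0.0413, and without any other single array it was between 0.0711 and 0.141.

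Baat (Entrez Gene 12012), the amino acid transferase gene, measured 7.64, 7.90, 7.86 and 7.90 in LKB1 KO 1 to 4, against 8.52, 8.55, 8.35 and 8.42 in Control 1 to 4. Both groups were tight, with an SD of 0.13 in LKB1 KO and 0.09 in Control, and the groups were 0.44 apart. Its difference was -0.63 (SE 0.12, limma adjusted p = 0.0251), or 1.55-fold lower. The call held without LKB1 KO 2, Control 3 or Control 4 and ended without any other single array (adjusted p 0.0635 to 0.0874).

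The bile acid receptor gene fell, and the gene of its target SHP did not pass the test. Nr1h4 (Entrez Gene 20186), which encodes FXR, measured 5.80, 5.65, 6.36 and 6.09 in LKB1 KO 1 to 4, against 7.47, 7.21, 7.11 and 7.16 in Control 1 to 4. This was the widest separation among the members, 0.75 log2 units between the nearest arrays. The means were 5.98 ± 0.31 in LKB1 KO and 7.24 ± 0.16 in Control (SD, n = 4 each). The difference was -1.26 (SE 0.17, limma adjusted p = 0.00473), or 2.40-fold lower with a 95% confidence interval of 1.85 to 3.11-fold. Nr1h4 was the only member whose call held with each of the 8 arrays left out (adjusted p from 0.00650 to 0.0217, difference from -1.39 to -1.15). Without moderation of variances its adjusted p was 0.0603.

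Nr0b2 (Entrez Gene 23957), which encodes SHP, measured 8.52, 7.66, 8.56 and 8.31 in LKB1 KO 1 to 4, against 7.51, 8.09, 7.88 and 8.54 in Control 1 to 4. The groups overlapped over most of their range. The difference was 0.26 (SE 0.25, 95% confidence interval -0.29 to 0.80, limma adjusted p = 0.725). It depended on single arrays, being 0.46 without LKB1 KO 2 (adjusted p = 0.415) and 0.09 without Control 1 (adjusted p = 0.918), and it was 0.63 without both LKB1 KO 2 and Control 4 (adjusted p = 0.126). Within the Control group the order of the arrays for Nr0b2, from Control 4 over Control 2 and Control 3 to Control 1, was the reverse of their order for Cyp7a1. In the LKB1 KO group both genes were lowest in LKB1 KO 2. These are orders of 4 arrays each, given as a description.

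The arrays did not share these differences evenly. LKB1 KO 2 was the lowest array of its group for 8 of the 10 members, Baat and Cyp7b1 being the exceptions. In the Control group, Control 4 was the lowest for 5 members (Cyp7a1, Cyp27a1, Hsd3b7, Akr1d1 and Slc27a5) and the highest for Nr0b2, and Control 3 was the lowest for 4 more (Cyp8b1, Cyp7b1, Baat and Nr1h4). Control 1 was the highest for 5 members. Without both LKB1 KO 2 and Control 4, 5 members passed and 0 rose (Cyp7a1, Cyp27a1, Hsd3b7, Slc27a5 and Nr1h4), and the adjusted p was 0.0553 for Cyp7b1 and 0.05001 for Baat.

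**Figure D3:**
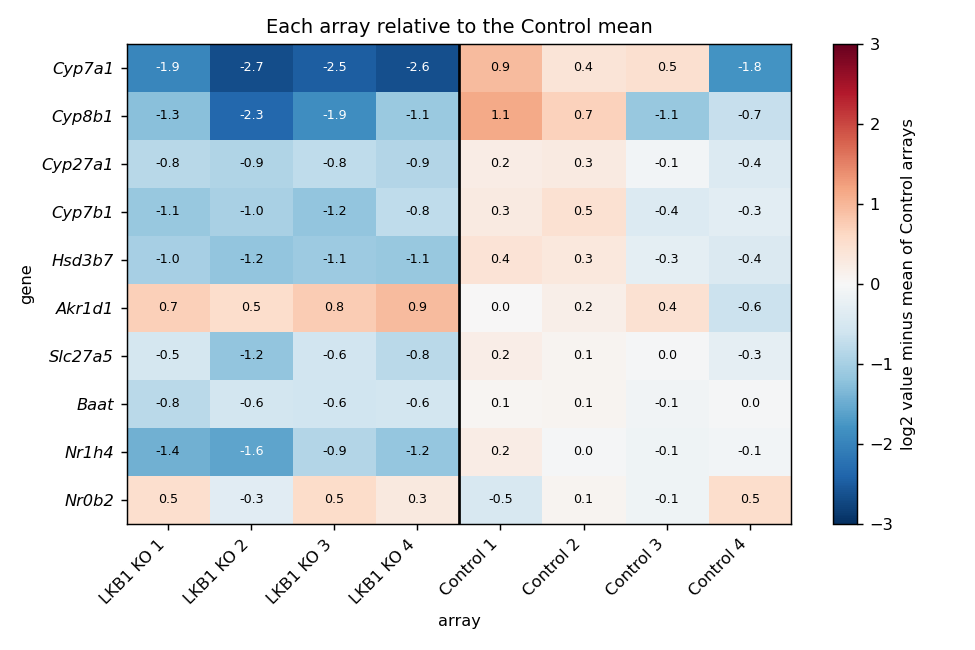
Log2 value of each member (rows) on each array (columns, LKB1 KO left of the line and Control right) minus the mean of the 4 Control arrays; blue is lower and red higher. Cyp7a1 is lower in all 4 LKB1 KO arrays and also in Control 4, whereas Nr1h4 is lower in the LKB1 KO arrays and even across the Control arrays.

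Members with related roles were set against each other within each array, in 5 pairs chosen after the values had been seen. Akr1d1 minus Hsd3b7 averaged 2.49 ± 0.17 in LKB1 KO and 0.65 ± 0.51 in Control (SD, n = 4 each). For that pair the groups were apart on every array, with a shift of 1.84 (exact two-sided permutation p = 0.0286, the smallest that 4 against 4 arrays allow, and 0.0714 adjusted over the 5 pairs). Akr1d1 was higher and Hsd3b7 lower on every LKB1 KO array than on any Control array. That alone fixed this exact p, so it adds nothing to the values of the single genes. Nr0b2 minus Nr1h4 averaged 2.29 ± 0.31 in LKB1 KO and 0.77 ± 0.55 in Control, a shift of 1.52 with the same exact and adjusted p. By itself Nr1h4 differed by -1.26 and Nr0b2 by 0.26 (limma adjusted p = 0.725), so this shift does not show a change in Nr0b2. The shifts within the pairs Cyp8b1 minus Cyp7a1 (0.78, exact permutation p = 0.286), Cyp7b1 minus Cyp27a1 (-0.16, exact permutation p = 0.314) and Baat minus Slc27a5 (0.14, exact permutation p = 0.571) did not exceed the spread between arrays. After adjustment no pair passed at 0.05, which this design could have reached only if at least 3 of the 5 pairs had the smallest p.

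**Figure D4:**
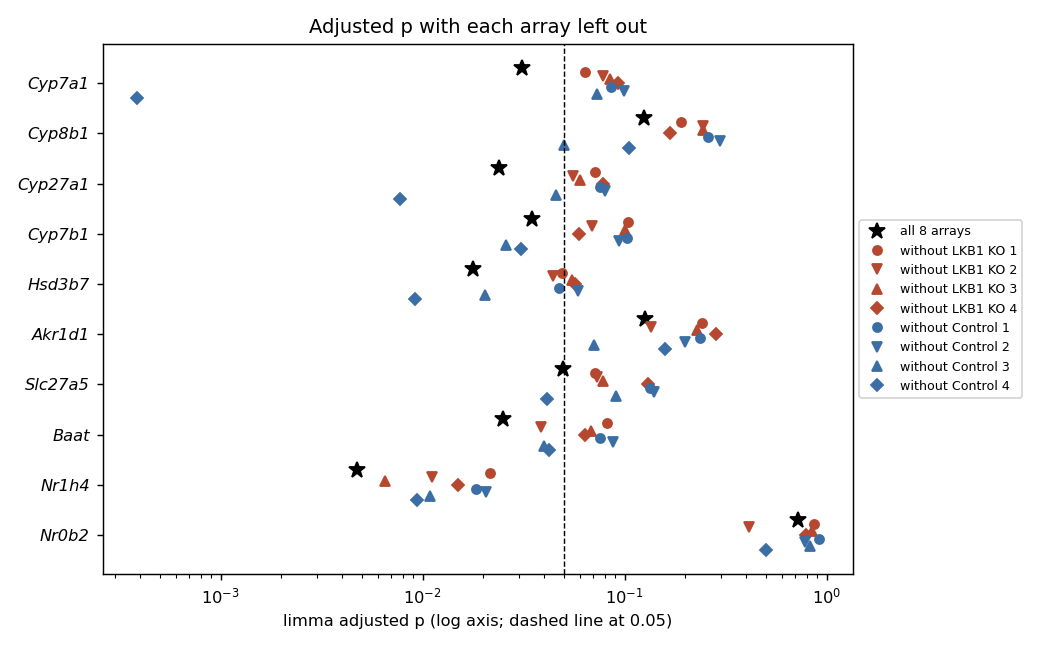
Limma adjusted p of each member (horizontal log axis) with all 8 arrays (black star) and with each LKB1 KO array (red) or Control array (blue) left out, the dashed line marking 0.05. Nr1h4 stays left of the line throughout, Cyp7a1 moves to 0.000384 without Control 4 and to the right of the line without any other array.

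Other genes of bile acid synthesis were examined as a list. Of 13 enzymes and partners measured besides the members, 1 fell, 0 rose and 12 did not pass, with a median difference of -0.05. At an unadjusted p under 0.05 there were 4, in both directions. The gene that fell was Scp2, which encodes the peroxisomal thiolase of side-chain shortening and a sterol carrier. It lay between 10.28 and 10.46 in LKB1 KO, against 10.79 and 11.07 in Control (difference -0.58, SE 0.12, limma adjusted p = 0.0339), and its call held only without Control 3 among the single arrays left out (adjusted p up to 0.110). Cyp2c70, which makes muricholic acids in mice, stood at -0.46 (SE 0.12, adjusted p = 0.0958). Higher in LKB1 KO among those 4, named after their values were seen, were Amacr (0.60, adjusted p = 0.122) and Cyp39a1 (0.70, adjusted p = 0.212).

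FXR target genes other than Nr0b2 were also examined as a list. Of 11 measured, 2 rose, 0 fell and 9 did not pass, with a median difference of 0.17. At an unadjusted p under 0.05 there were 6, against 3114 of 23185 over all genes. Of those 6, the ones lower in LKB1 KO, named after their values were seen, were Fetub (-0.48, limma adjusted p = 0.0844) and Pltp (-0.38, adjusted p = 0.369). The rest were higher, namely the 2 that rose and, also named after their values were seen, Sdc1 (0.63, adjusted p = 0.209) and Insig2 (0.44, adjusted p = 0.162). Slc51b, a subunit of the basolateral bile acid exporter, measured 6.56, 6.30, 6.79 and 7.16 in LKB1 KO 1 to 4, against 4.44, 5.27, 5.37 and 6.03 in Control 1 to 4. Its difference was 1.42 (SE 0.30, limma adjusted p = 0.0393), and the call held only without Control 4 among the single arrays left out (adjusted p up to 0.118). Vldlr, the very low density lipoprotein receptor gene, rose by 1.30 (SE 0.24, adjusted p = 0.0201), and kept its call only without Control 3, Control 4 or LKB1 KO 2 among the single arrays left out (at most 0.0705 otherwise). The canalicular bile salt pump gene Abcb11, named here for its role after its value was seen, stood at 0.05 (SE 0.15, adjusted p = 0.920).

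Among 23 measured regulators of Cyp7a1 and Cyp8b1, 2 rose, 3 fell and 18 did not pass, with a median difference of -0.01. Ppargc1a, a coactivator gene induced by fasting, lay between 8.10 and 8.43 in LKB1 KO, against 6.47 and 7.22 in Control (difference 1.34, SE 0.17, limma adjusted p = 0.00401). The constitutive androstane receptor gene Nr1i3 lay between 6.68 and 7.11 in LKB1 KO, against 7.90 and 8.08 in Control (difference -1.05, SE 0.13, adjusted p = 0.00324). The calls of these 2 genes held with each single array left out (adjusted p up to 0.0193 and 0.0151).

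The other calls among the regulators were less firm. Rxra, the partner with which FXR binds DNA, fell by 0.69 (SE 0.12, limma adjusted p = 0.0161), and lost its call on omission of LKB1 KO 1 or of LKB1 KO 4, with an adjusted p of at most 0.0563. Prox1, a corepressor of Cyp7a1, fell by 0.90 (adjusted p = 0.0310), and the AP-1 gene Jun rose by 1.04 (adjusted p = 0.0329). Prox1 kept its call only without Control 1 and Jun only without LKB1 KO 2 among the single arrays left out (adjusted p up to 0.0830 and 0.100). Of the nuclear receptors through which SHP acts on the Cyp7a1 promoter, named for that role after their values were seen, Nr5a2 stood at -0.24 (adjusted p = 0.510) and Hnf4a at -0.04 (adjusted p = 0.939). The genes of the hepatic FGF15 receptor complex, also named after their values were seen, stood at -0.64 for Fgfr4 (adjusted p = 0.210) and 0.46 for Klb (adjusted p = 0.414).

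**Figure D5:**
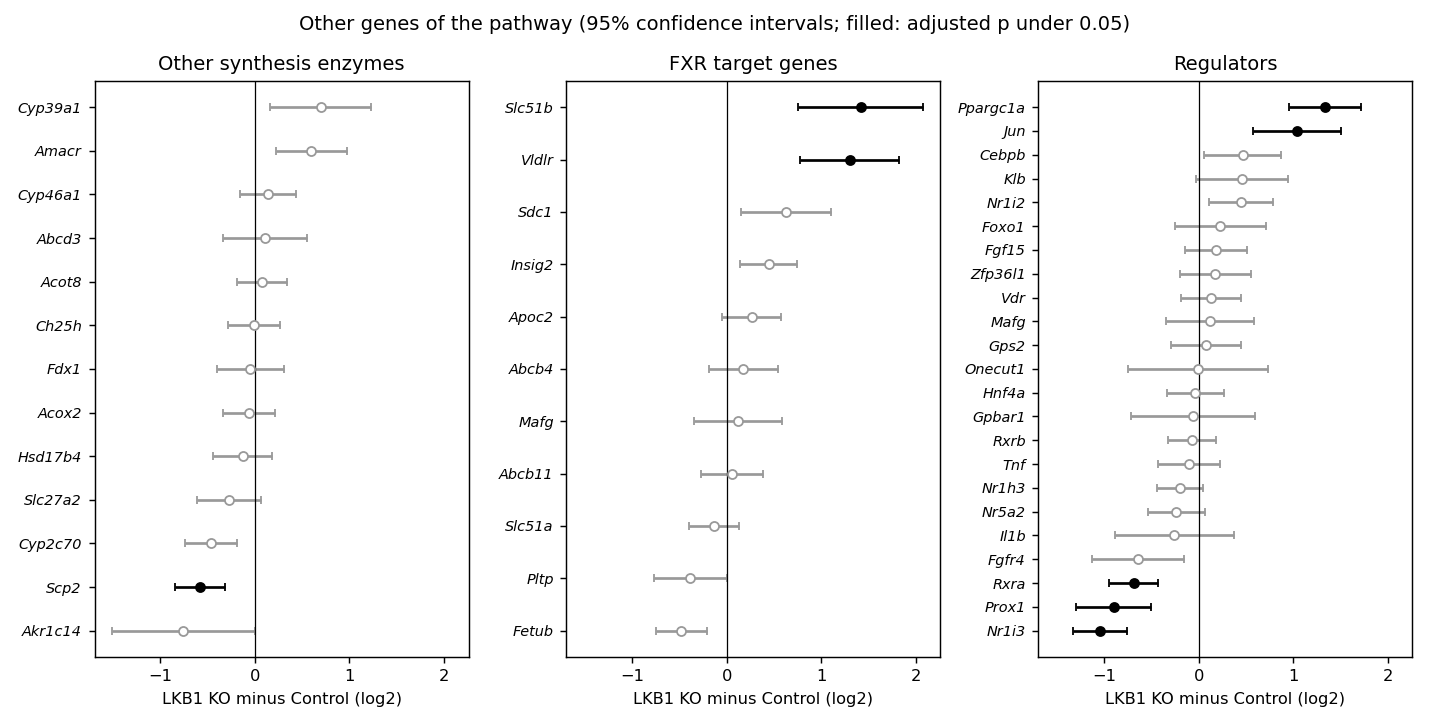
Difference LKB1 KO minus Control (horizontal axes, log2 units) with 95% confidence interval for 13 other synthesis genes, 11 FXR target genes and 23 regulators; filled points passed at an adjusted p under 0.05. Filled points are Scp2 below 0, Slc51b and Vldlr above 0, and among the regulators Ppargc1a and Jun above and Rxra, Prox1 and Nr1i3 below 0.

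Cyp7a1 follows a daily rhythm in mouse liver, and the sources used here do not give the hour of collection. Among 15 clock and clock output genes, 1 fell, 0 rose and 14 did not pass, with a median difference of 0.11. At an unadjusted p under 0.05 there were 6. The clock repressor gene Nr1d1 fell in LKB1 KO, lying between 6.32 and 7.18, against 8.17 and 9.04 in Control (difference -1.77, SE 0.24, limma adjusted p = 0.00472), and kept its call with each single array left out (adjusted p up to 0.0196). Per1 stood at 1.05 (adjusted p = 0.0643). The part of the clock in the bile acid genes was not tested.

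The members are hepatocyte genes, and in whole liver RNA fewer cells of a type cannot be told apart from less RNA per cell. Of 8 measured hepatocyte markers 0 passed by limma (2 at an unadjusted p under 0.05), with a median difference of -0.15, led by Fgb at -0.42 (adjusted p = 0.0929) and Apoa1 at -0.31 (adjusted p = 0.293). Their summed signal, on the linear scale in arbitrary units, ran from 28820 to 31287 in LKB1 KO and from 32232 to 34128 in Control, without overlap. These markers lay at high signal (Fgb from 11.76 to 12.32 over all arrays), where differences can be understated. Their median is therefore a weak gauge of hepatocyte content. Among 9 markers of dividing cells, Plk1 (1.64, adjusted p = 0.0471) and Ccnb2 (1.54, adjusted p = 0.0250) rose and 0 fell, with a median of 1.23 and a summed signal of 1269 to 2850 in LKB1 KO, against 506 to 1419 in Control. Without both LKB1 KO 2 and Control 4 neither passed, and with single arrays left out the adjusted p reached 0.135 for Plk1 (kept only without Control 3 or LKB1 KO 2) and 0.0845 for Ccnb2 (kept only without Control 2, Control 3 or LKB1 KO 2).

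Markers of macrophages, endothelial cells, stellate cells and neutrophils had medians below 0. Of 10 Kupffer cell or macrophage markers, Csf1r fell (-0.78, limma adjusted p = 0.0378), Cd5l stood at -0.77 (adjusted p = 0.0549), and the median was -0.45, with a summed signal of 773 to 1063 in LKB1 KO and 1025 to 1784 in Control. Of 9 sinusoidal endothelial markers, Clec4g (-0.83, adjusted p = 0.00663), Kdr (-0.72, adjusted p = 0.0434) and Gpr182 (-0.68, adjusted p = 0.0191) fell, with a median of -0.54 and a summed signal of 872 to 1006 in LKB1 KO and 1181 to 1485 in Control. Csf1r kept its call only without Control 2 and Kdr only without Control 4 among the single arrays left out (adjusted p up to 0.110 and 0.130), Gpr182 lost it when LKB1 KO 1, LKB1 KO 3 or Control 2 was omitted (at most 0.0634), and Clec4g kept it throughout. The median was -0.36 for 8 stellate cell markers, with Rgs5 at -1.02 (adjusted p = 0.0822) and Reln at -0.48 (adjusted p = 0.131), and -0.68 for 6 neutrophil markers, with S100a8 at -1.07 (adjusted p = 0.164) and S100a9 at -1.07 (adjusted p = 0.179). In these 2 lists 0 passed, and 4 and 3 genes had an unadjusted p under 0.05. Of the neutrophil markers, Ly6g lay under the gauge on all 8 arrays, and Retnlg and Csf3r on 4 LKB1 KO and 3 Control arrays. S100a8 was highest in Control 4 (8.14, against 6.49 to 7.12 in the other Control arrays).

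Cholangiocytes, lymphocytes and erythroid cells completed the marker lists. Of 5 cholangiocyte markers 0 passed by limma, 0 at an unadjusted p under 0.05, with Cftr at 0.21 (adjusted p = 0.584) and Krt19 at -0.17 (adjusted p = 0.765), and the same held for 7 lymphocyte markers, with Cd3g at 0.19 (adjusted p = 0.671) and Cd79a at 0.15 (adjusted p = 0.782). However, 2 of the 5 cholangiocyte and 4 of the 7 lymphocyte markers, Cftr, Cd3g and Cd79a among them, lay under the gauge on all 8 arrays, so their differences say nothing of those cells. Of 3 erythroid markers, Alas2 fell (-1.03, adjusted p = 0.0471, kept only without Control 4 among the single arrays left out), Hbb-bs stood at -0.86 (adjusted p = 0.385), and Slc4a1, which lay under the gauge on 3 LKB1 KO arrays and all 4 Control arrays, stood at 0.38 (adjusted p = 0.561). The part of cell composition in the differences of the members was not tested.

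The genes whose values over the 8 arrays lay nearest to those of Cyp7a1, by the root-mean-square difference of values centred on each gene's mean, were the sulfotransferase gene Sult2a8 (0.47 log2 units), the carbonic anhydrase gene Car3 (0.54) and the organic anion transporter gene Slc22a7 (0.55). Of these, Slc22a7 fell (-2.39, limma adjusted p = 0.00350), and Sult2a8 (-1.92, adjusted p = 0.0755) and Car3 (-1.67, adjusted p = 0.0759) did not pass. Nearest to Nr1h4 were Pbld1 (0.18), Mfsd1 (0.19) and the protease gene Ctsc (0.19), each of which fell by 1.03 to 1.29 with an adjusted p between 0.00181 and 0.00542.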

How the data were processed

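Total RNA of 8 liver samples was amplified by single primer isothermal amplification and labelled with biotin, per the labels' protocols. The authors deposited 1 log2 value per gene and array; RMA and Partek are named without versions, per the submitters' processing notes. The sources used here give no genome build, scan date or probe position, and coordinates are left out. The platform annotation named 23185 of the 25206 rows with a single symbol and the other 2021 with none, and all 23185 Entrez identifiers kept their symbol in RefSeq's gene table. All 8 value columns were mapped to a sample by name.

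The deposited log2 values were fitted with limma 3.58.1 in R 4.3.3 (lmFit, eBayes, group as the single term, no filter on level), with Benjamini-Hochberg adjustment over 23185 genes. The fit was tested on simulated data. The number of arrays limits the precision. RMA compresses differences at low and at very high signal, which can understate folds.

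The members, the 7 pathway lists and the 9 marker lists (152 of 172 genes measured) were chosen with earlier results of these data known. All members and Stk11 are named, up to 5 called genes of each list (the 2 with the smallest p where fewer than 2 passed), and the 3 genes nearest in pattern to Cyp7a1 and to Nr1h4, leaving out placeholder symbols. Most genes named outside this rule are marked as such. The exceptions are the sex-linked transcripts Eif2s3y and Xist, the erythroid marker Slc4a1 and the neutrophil markers Ly6g, Retnlg and Csf3r. Alternatives were the replicate number as a block, single arrays left out, LKB1 KO 2 and Control 4 both left out, quantile normalization, median centring, the dimmest of 3 equal bins of genes left out, a trended and robust prior, no moderation, array weights and all rows.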

Additional observations from a re-analysis of the deposited data

Results flagged for a closer look

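For Baat, LKB1 KO 1 (7.64) lay apart from the other LKB1 KO arrays (7.86 to 7.90), with a gap to the nearest of them of 0.848 of the group's whole range, above Dixon's 95% critical value for 4 samples. It was the 1 such case among 22 groups examined, where chance gives about 1 in 20. Control 4 for Cyp7a1, the widest gap among the members in log2 units, did not reach that value.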

How the results depend on the processing

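Each of the 10 members was recomputed under 17 alternatives, 170 values in all. Every one kept its direction, 121 kept their side of the threshold, 48 lost it and 1 gained it (Cyp8b1 without Control 3). Stk11 passed under all 17. The number of members past the threshold, 7 with all arrays, was 3 with the replicate number as a block, 1 without moderation of variances, and between 1 and 7 with single arrays left out. It was 6 or 7 under quantile normalization, median centring, removal of the dimmest of 3 equal bins of genes, a trended and robust prior, array weights and all rows, and 5 without both LKB1 KO 2 and Control 4. Over all genes, 458 passed, against 268 with the replicate block, 97 without moderation, 721 with array weights and between 213 and 491 with single arrays left out. Quantile normalization gave 538 calls with 36.8% of them higher, against 24.7% as deposited. The block kept the calls of Cyp7a1, Hsd3b7 and Nr1h4. Same-numbered arrays deviated together weakly or oppositely (correlations from -0.11 to 0.18), so the numbers were not taken to pair the samples. Median centring and the use of all rows each ended the call of Slc27a5 (adjusted p = 0.0625 and 0.0505). The cause of the lost calls was not tested. The lowest value of any member was 4.80, against a background gauge of 3.73.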
